A study of Egretta garzetta and Nycticorax nycticorax with 12 samples.

Results

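The annotation of the black-crowned night heron, *N. nycticorax*, holds 13361 genes. Of these, 33 were taken for transcript levels in the olfactory epithelium (OE) at least 3 times higher in every adult than in every nestling. These 33 are called members below. They were chosen by a rule on the values themselves. The lowest of the 3 adults had to reach at least 1 TPM (a transcript level per 1000000 transcripts of the library, corrected for gene length), and this lowest adult had to be at least 3 times the highest of the 3 nestlings after 0.1 TPM was added to both. That quotient is called the ratio below. The rule could take 13001 genes. It left out 322 listed olfactory receptor (OR) and vision-related genes, none of which met the numbers, and 38 abundant genes with a 0 in some bird, of which 1, NheS0688g001, met them. As the levels of the 6 birds chose the genes, the height of the adults over the nestlings is a description and carries no test.

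The OE is the sheet of nasal tissue in which olfactory neurons carry the odour receptors. Supporting cells surround these neurons, basal cells renew them, and glands beneath the sheet secrete mucus. The neighbouring respiratory lining holds ciliated and secretory cells, and a dissected piece can hold both linings with connective tissue and blood. A bulk library sums over all of them, so fewer cells of a type and less RNA per cell cannot be told apart.

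The series covers 2 species, *N. nycticorax* and the little egret *E. garzetta*, with 3 nestlings and 3 adults of each, caught as wild birds in Xiamen. Each bird was sequenced as its own library, and the birds are numbered 1 to 3 for nestlings and 4 to 6 for adults. Every nestling came from a nest of its own, while the adults, recognised by breeding plumage, were caught at a different place, so that stage and place cannot be told apart. Neither treatment nor age in days is given.

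Libraries of *N. nycticorax* held between 10530972 and 13169583 read equivalents, which are the coverage of the coding exons times their length divided by the read length of 150. Nestling 2 stood apart. Its median level over genes above 0 was 9.31 TPM, against 20.7 to 27.1 TPM in the other birds, and the factor that brings its genes to the common median was 0.551, against 1.01 to 1.23. Its reads also leaned to the 3′ end of genes. Over genes of 6 or more coding exons averaging 1 TPM or more, the median quotient of the coverage of the last 3 exons to that of the first 3 was 2.71 in nestling 2, 1.25 and 1.36 in nestlings 1 and 3, and 1.11 to 1.14 in adults, a measure added after the exon coverage was seen. The part of this in the members' levels was not tested. Without nestling 2 the rule was met by 41 genes. The 33 members had to be among them, as leaving out a nestling can only make the numbers of the rule easier to meet. The listed transcription factors of basal and supporting cells did not follow each other. SOX2 was at 221, 65.1 and 114 TPM in nestlings and at 203, 225 and 182 TPM in adults, and PAX6 at 5.28, 2.40 and 18.5 TPM and at 5.50, 4.01 and 5.35 TPM. The sum over 61 OR genes was low, at 5.84 to 70.4 TPM in nestlings and 3.38 to 15.2 TPM in adults. The sum over 8 connective tissue genes, among them the collagen gene COL1A1, was highest in nestling 3 with 23209 TPM and in adult 5 with 13701 TPM, and 1357 to 5347 TPM in the remaining birds. Most of it was COL1A1 alone, at 21869 TPM in nestling 3, 12393 TPM in adult 5 and 847 to 4600 TPM in the remaining birds. All genes of these lists were above 0 in some bird.

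The 33 genes made up 0.254% of the genes the rule could take. With the stages exchanged, 2 genes (0.0154%) were at least 3 times higher in every nestling. In *E. garzetta*, the same numbers gave 0 of 16172 genes (0%) higher in every adult and 1 (0.00618%) higher in every nestling. Without any demand on the ratio, the 2 stages of *N. nycticorax* did not overlap for 1923 genes (14.8%) that were higher in adults and for 453 genes (3.48%) that were higher in nestlings, with a lowest bird of the higher stage of at least 1 TPM. The 33 genes are the far end of the larger of these sets. A limma fit of stage over 13042 genes called 0 genes (0%) at an adjusted p below 0.05. In that fit 924 genes had an unadjusted p below 0.05, of which 785 were higher in adults, and the smallest adjusted p over all genes was 0.104. Adults lay above nestlings by a median log2 difference of 0.45 over all 13042 genes as deposited. With the birds rescaled to a common median it was 0.03. The gene counts of this paragraph are from the deposited levels, which hold this shift. The number of genes meeting the rule depended on single birds. It was 181 without nestling 1, 108 without nestling 3, 68 without adult 5 and 56 without adult 6. The 33 genes were among those each time, as the numbers of the rule can only be met more easily over fewer birds. Members with a 0 in a bird all had an adult mean under 10 TPM, too low to be left out as abundant.

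**Figure D1:**
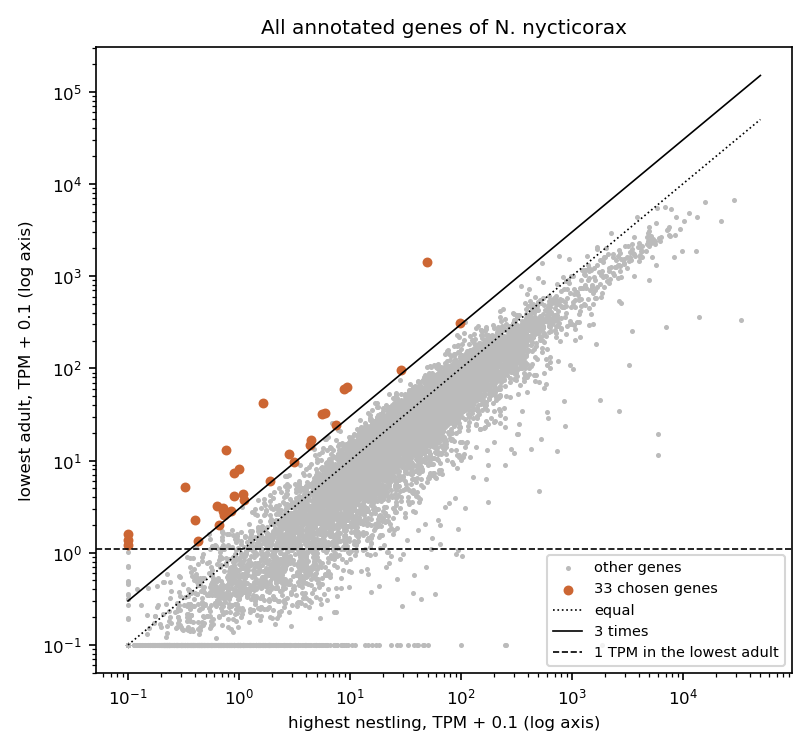
Lowest of 3 adults against highest of 3 nestlings, both in TPM + 0.1 on log axes, for every annotated gene of *N. nycticorax*. The 33 chosen genes (orange) lie on or above the line of 3 times and above the broken line of 1 TPM, and the highest of them by level is NheS0471g031, at 1409 TPM in its lowest adult.

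The members ranged in mean adult level from 1.47 TPM in NheS0557g003 to 2547 TPM in NheS0471g031. In 4 of them the adult mean was at least 100 TPM, in 11 it lay between 10 and 100 TPM, and in 18 it was under 10 TPM. The summed level of all 33 was 173, 115 and 149 TPM in nestlings 1 to 3 and 2336, 5802 and 2682 TPM in adults 4 to 6. This was 0.0146% ± 0.00294 (SD, n = 3) of all transcripts in nestlings and 0.361% ± 0.191 (SD, n = 3) in adults. A single gene, NheS0471g031, held 60.3% to 76.8% of the adult sum. Without it the sums were 65.5 to 162 TPM in nestlings and 905 to 1346 TPM in adults. The adult sums had to lie above the nestling sums, as the rule asks this of each gene. The median over the 33 genes of the difference between mean adult and mean nestling level was 3.68 on the log2(TPM + 0.1) scale (range 2.08 to 6.62), beside 0.45 over all 13042 genes. On that scale the added 0.1 TPM lowers the change of genes with low levels. The choice of the genes by these same values favours large differences.

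NheS0471g031 was the most abundant of the 33 and had the largest ratio. It was at 11.7, 49.2 and 19.8 TPM in nestlings 1 to 3 and at 1409, 4456 and 1777 TPM in adults 4 to 6. Every adult was thus far above every nestling, with a ratio of 28.6, and adult 5 was the highest. The adult mean was 94.6 times the nestling mean, and the difference was 6.62 ± 0.79 (SE, n = 3 per stage) on the log2 scale. The gene has 1 coding exon of 582 bp on the minus strand of scaffold 471, from 408635 to 409216. The files give it no name, as they give none to any of the 33, and the positions are on the scaffolds of the assembly the study made.

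The other 3 genes above 100 TPM differed in how even they were among birds. NheS0327g011, with 2 coding exons of 567 bp in all on scaffold 327, was at 97.2, 10.2 and 56.7 TPM in nestlings and at 312, 348 and 315 TPM in adults. Its adults differed by only 1.11 times while its nestlings were widely spread, and the ratio was 3.21. NheS0471g032 was at 4.31, 9.24 and 6.64 TPM in nestlings and at 62.7, 351 and 89.4 TPM in adults, so that adult 5 was 5.59 times adult 4. NheS0370g005 has 18 coding exons, the most of the 33, and was at 27.1, 22.5 and 28.9 TPM in nestlings and at 145, 106 and 95.3 TPM in adults. Its adult mean was 4.41 times the nestling mean, one of the smaller differences here, and rested on 2694 or more read equivalents in each adult. In nestling 2, 60.5% of its reads lay on exons 15 to 18 at the 3′ end, against 31.3% to 39.1% in the other birds.

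NheS0680g002 and NheS0497g011 complete the 6 highest. NheS0680g002, a single exon of 606 bp, was at 1.42, 8.74 and 2.87 TPM in nestlings and at 59.4, 97.2 and 110 TPM in adults. Nestling 2 was its highest nestling and set the ratio of 6.73. NheS0497g011 was at 1.43, 1.56 and 0.662 TPM in nestlings and at 85.2, 88.5 and 42.1 TPM in adults, and its ratio of 25.4 was the second largest. Its nestlings lay close together near 1 TPM, and its adult mean was 59.0 times their mean, a log2 difference of 5.78 ± 0.50 (SE, n = 3 per stage).

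**Figure D2:**
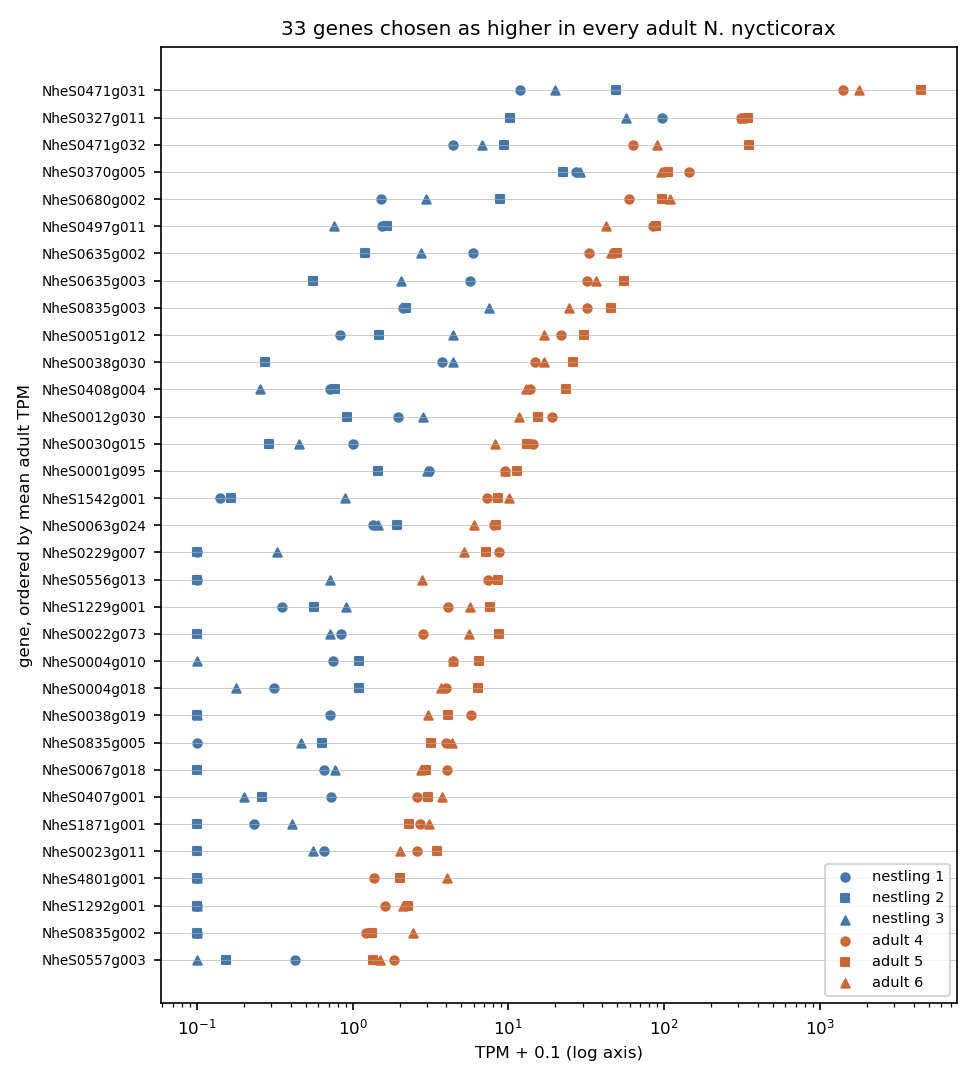
Level of each of the 33 chosen genes in each of the 6 *N. nycticorax*, as TPM + 0.1 on a log axis, with nestlings in blue and adults in orange and 1 symbol per bird. The genes are ordered by mean adult level from NheS0557g003 (1.47 TPM) to NheS0471g031 (2547 TPM), and the blue and orange points of a gene never overlap, as the rule required.

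A further 4 genes had ratios among the 6 largest. NheS0408g004, a gene of 9 coding exons, was at 0.611, 0.665 and 0.156 TPM in nestlings and at 13.7, 23.4 and 12.8 TPM in adults, a ratio of 16.9. NheS0229g007 was listed at 0 in nestlings 1 and 2 and at 0.229 TPM in nestling 3, and was at 8.65, 7.12 and 5.10 TPM in adults. NheS1292g001 and NheS4801g001 were listed at 0 in every nestling. Their adults were low as well. NheS1292g001 was at 1.51, 2.17 and 2.02 TPM in adults 4 to 6, and NheS4801g001 at 1.27, 1.91 and 3.92 TPM. A count of 0 allows up to 3 read equivalents, which corresponds to 0.530 to 0.937 TPM for NheS1292g001 and 0.379 to 0.670 TPM for NheS4801g001 in a nestling, counting error only, so that these ratios rest on few reads.

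NheS0835g002 was the third gene at 0 in every nestling, where 3 read equivalents would be 0.510 to 0.901 TPM, and it was at 1.12, 1.24 and 2.35 TPM in adults. In all, 13 of the 33 genes were listed at 0 in some nestling and 20 were above 0 in all nestlings. No member could be at 0 in an adult, as the rule asks at least 1 TPM of the lowest adult. The 13 genes all had an adult mean under 10 TPM, which the rule largely sets, as it leaves out genes with a 0 in a bird and a mean of 10 TPM or more over the birds. Zeros fell on nestling 1 for 6 genes, on nestling 2 for 10 and on nestling 3 for 6. The median over the 33 genes of the lowest read equivalents in an adult was 67.5, and that of the highest in a nestling 17.0. In 4 genes some adult had fewer than 10 read equivalents, down to 4.25 for NheS0835g002 in adult 4, and 29 genes remain when 10 are asked of every adult.

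Genes at the edge of the rule show that it cuts a continuous range. The smallest ratios among the 33 were those of NheS0001g095 (3.06), NheS0023g011 (3.06) and NheS0063g024 (3.13). NheS0001g095 was at 3.01, 1.36 and 2.92 TPM in nestlings and at 9.42, 11.2 and 9.44 TPM in adults. Just outside lay NheS0497g013 with a ratio of 2.99, NheS0071g030 with 2.93 and NheS0497g010 with 2.92. NheS0497g010 was at 2.03, 5.80 and 3.34 TPM in nestlings and at 110, 26.4 and 17.2 TPM in adults, so it was higher in adults than most of the genes inside the rule. A further 11 genes had a ratio of at least 3 and a lowest adult under 1 TPM, the nearest being NheS0056g042, listed at 0 in the nestlings and at 0.927, 1.13 and 2.28 TPM in the adults. Between ratios of 2 and 3 there were 67 genes.

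Rescaling of the birds to a common median took some genes out of the rule. The levels of nestling 2 rose and those of the adults fell, and 22 of the 33 genes still met it. No other gene entered. In 10 genes the ratio fell below 3, and after rescaling the highest nestling was nestling 2 in 5 of these, nestling 3 in 4 and nestling 1 in 1. NheS0835g002 kept a ratio of 10.3 but its lowest adult fell below 1 TPM. The ratio had to stay above 1 in all 33 genes, as factors between 0.551 and 1.23 cannot bring a ratio of 3 down to 1. It ran from 1.44 for NheS0063g024 to 13.4 for NheS1292g001, and its median went from 4.24 to 3.23. NheS1292g001 and NheS0835g002 were listed at 0 in every nestling, so the added 0.1 TPM alone was the divisor of their ratios. NheS0370g005 went from 3.29 to 1.90, NheS0004g018 from 3.36 to 1.58 and NheS0004g010 from 4.00 to 1.89. The most abundant gene, NheS0471g031, went from 28.6 to 13.0 and stayed among the 3 highest. Over all genes the median log2 difference between adults and nestlings was 0.45 as deposited and 0.03 after rescaling, and over the 33 genes 3.68 and 3.47.

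**Figure D3:**
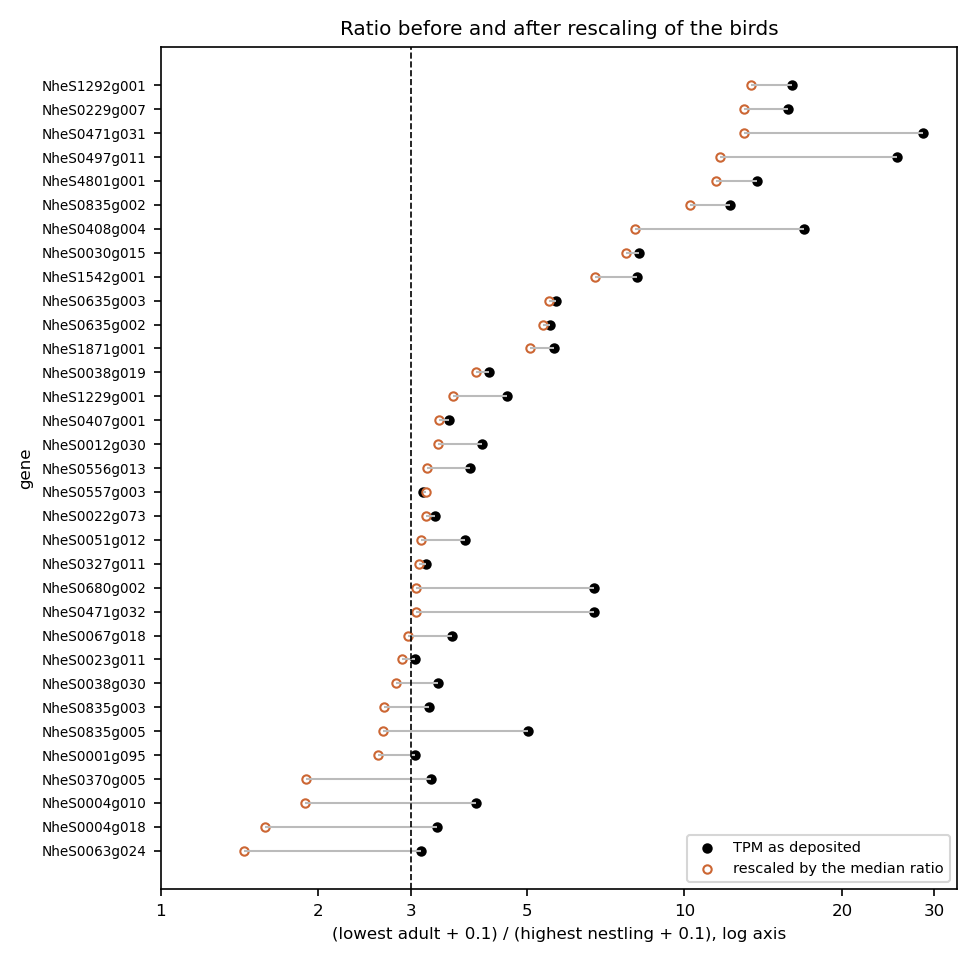
Ratio of the lowest adult to the highest nestling (each in TPM + 0.1, log axis) for the 33 chosen genes, from the deposited TPM (black) and after rescaling of the birds to a common median ratio (open circles). The broken line is the ratio of 3 of the rule, and 10 genes have an open circle to its left.

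Adults 4, 5 and 6 did not contribute equally. Adult 5 was the highest adult for 19 of the 33 genes, and for 27.5% of the genes that averaged 1 TPM or more. Adults 4 and 6 were the highest for 7 genes each. Adult 5 also had the highest connective tissue sum of the adults, most of it COL1A1, and the part of this in the members' levels was not tested. Nestling 3, with the highest connective tissue sum of all 6 birds, had a summed level of 149 TPM over the 33 genes, between those of the other nestlings. The rule keeps every nestling below every adult in each gene, so this value cannot speak to the part of tissue content. The median SD on the log2 scale was 0.41 among adults and 1.04 among nestlings. Nestlings varied more than adults in 28 of the 33 genes (84.8%), close to the 85.9% of genes averaging 1 TPM or more for which this held.

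The coding parts of the 33 genes were short. Their median coding length was 606 bp (quartiles 381 and 1353 bp), beside 1029 bp over all genes and 1047 bp over those averaging 1 TPM or more. They had a median of 4 coding exons, beside 6. A single coding exon was annotated in 7 of the 33 (21.2%, beside 7.72% of all genes), and a coding length under 400 bp in 10 (30.3%, beside 12.5%). The shortest was NheS0063g024 with 249 bp in 2 exons and the longest NheS1542g001 with 3465 bp in 7 exons. Every coding length was a multiple of 3, so the models hold no untranslated regions and the lengths are coding lengths. Among the 22 genes that pass after rescaling the median length was 660 bp with 4.5 exons. Of these 22, 4 (18.2%) had a coding length under 400 bp, nearer the 12.5% of all genes. A single coding exon was annotated in 6 of them (27.3%). TPM divides by this length, and reads on untranslated parts of a gene do not enter it.

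The abundant members included most of the single-exon models. The 4 genes above 100 TPM had a median coding length of 586.5 bp and a median of 1.5 exons, the 11 genes between 10 and 100 TPM 714 bp and 3 exons, and the 18 genes under 10 TPM 657 bp and 4 exons. Of the 7 single-exon genes, 5 were among the 8 highest, a cut not set in advance: NheS0471g031, NheS0471g032, NheS0680g002, NheS0635g002 and NheS0635g003. Of these, only NheS0471g031 and NheS0471g032 had an adult mean above 100 TPM. NheS0067g018 and NheS1292g001, the remaining single-exon genes, were low. Both highest members of scaffold 471 are of nearly the same length, at 582 and 591 bp, and those of scaffold 635 of the same length, at 333 bp.

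The 33 genes lay on 27 scaffolds, and 5 of these held more than 1. On 3 scaffolds members were immediate neighbours: NheS0471g031 and NheS0471g032, NheS0635g002 and NheS0635g003, and NheS0835g002 and NheS0835g003. Thus 6 of the 33 (18.2%) had a member as the next annotated gene on either side, as did 54 of all 13361 genes (0.404%). Members alone on their scaffold were 3 (9.09%, beside 3.53% of all genes), namely NheS1542g001, NheS1871g001 and NheS4801g001. No member overlapped another gene model. The neighbourhoods of scaffolds 471, 497 and 635 were picked for description after their values were seen.

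On scaffold 471 the member pair stands at one end. NheS0471g030, the next gene to the left, was at 162, 137 and 164 TPM in nestlings and at 163, 160 and 171 TPM in adults and overlapped between the stages. NheS0471g031 begins 3.27 kb beyond its end and NheS0471g032 follows 1138 bp after that on the opposite strand, as the last gene of the scaffold. The quotient of NheS0471g031 to NheS0471g032 was 2.73, 5.33 and 2.98 in nestlings and 22.5, 12.7 and 19.9 in adults, so their levels did not keep 1 proportion in the 2 stages. Over the 30 other genes of this scaffold the median log2 difference between stages was 0.02 (range -1.52 to 1.60), and 6 of them had every adult above every nestling, where 14.8% of all genes did so with a lowest adult of at least 1 TPM. Counting by strand is not stated, and without it reads of neighbouring genes on opposite strands cannot be told apart where untranslated parts overlap.

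On scaffold 635 the pair was even in adults. NheS0635g002 was at 5.82, 1.09 and 2.66 TPM in nestlings and at 32.8, 49.7 and 45.8 TPM in adults. NheS0635g003, 2470 bp away on the opposite strand, was at 5.54, 0.458 and 1.94 TPM and at 32.0, 55.0 and 36.4 TPM. The quotient of the 2 genes was 1.05, 2.39 and 1.37 in nestlings 1 to 3 and 1.02, 0.903 and 1.26 in adults. Their coding lengths are equal, and if they are near-identical copies the authors' counting may have split reads between them, so their single values are uncertain. The gene beside them, NheS0635g004, was at 0.784, 1.29 and 4.93 TPM in nestlings and at 17.2, 10.4 and 10.5 TPM in adults and stayed outside the rule. It was 1 of the 8 other genes of the scaffold (12.5%) with every adult above every nestling, close to the 14.8% of all genes.

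Scaffold 835 held 3 members, the most of any, among only 6 genes, all on the plus strand. NheS0835g003 was at 2.00, 2.11 and 7.44 TPM in nestlings and at 32.0, 45.3 and 24.4 TPM in adults. NheS0835g005 was at 0, 0.538 and 0.363 TPM in nestlings and at 3.89, 3.10 and 4.25 TPM in adults. Between them lies NheS0835g004, which overlapped between stages, at 19.3, 16.6 and 39.6 TPM in nestlings and 49.3, 35.6 and 33.8 TPM in adults. The 5 genes after the first have coding lengths of 306, 336, 375, 381 and 378 bp. All 3 members of this scaffold leave the rule after rescaling.

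Scaffolds 4 and 38 held 2 members each, without adjacency. NheS0004g010 was at 0.647, 0.997 and 0 TPM in nestlings and at 4.28, 6.36 and 4.32 TPM in adults, and NheS0004g018 at 0.212, 1.00 and 0.0790 TPM and at 3.90, 6.29 and 3.60 TPM. On scaffold 38, NheS0038g030 was at 3.65, 0.174 and 4.31 TPM and at 14.8, 25.8 and 16.9 TPM, and NheS0038g019 at 0.616, 0 and 0 TPM and at 5.66, 4.02 and 2.93 TPM. The members of these pairs started between 0.738 and 3.06 Mb apart.

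On scaffold 497 the single member NheS0497g011 had the genes just below the ratio on both sides, NheS0497g010 next to it and NheS0497g013 2 genes on. NheS0497g013 was at 0.435, 0.272 and 0.118 TPM in nestlings and at 1.503, 5.69 and 10.7 TPM in adults. KRT12, the gene of a keratin known from the surface of the mammalian cornea, is NheS0497g007 on the same scaffold, 4 genes from the member. Over the 17 other genes of the scaffold the median log2 difference between stages was 0.15, from -1.48 to 3.72, and 4 of them (23.5%) had every adult above every nestling, beside 14.8% of all genes. The only listed gene immediately beside a member was OPN5, a light-sensing opsin, next to NheS0407g001. NheS0407g001 was at 0.626, 0.161 and 0.1005 TPM in nestlings and at 2.48, 2.95 and 3.66 TPM in adults. A place beside a named gene says nothing of what a member does.

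**Figure D4:**
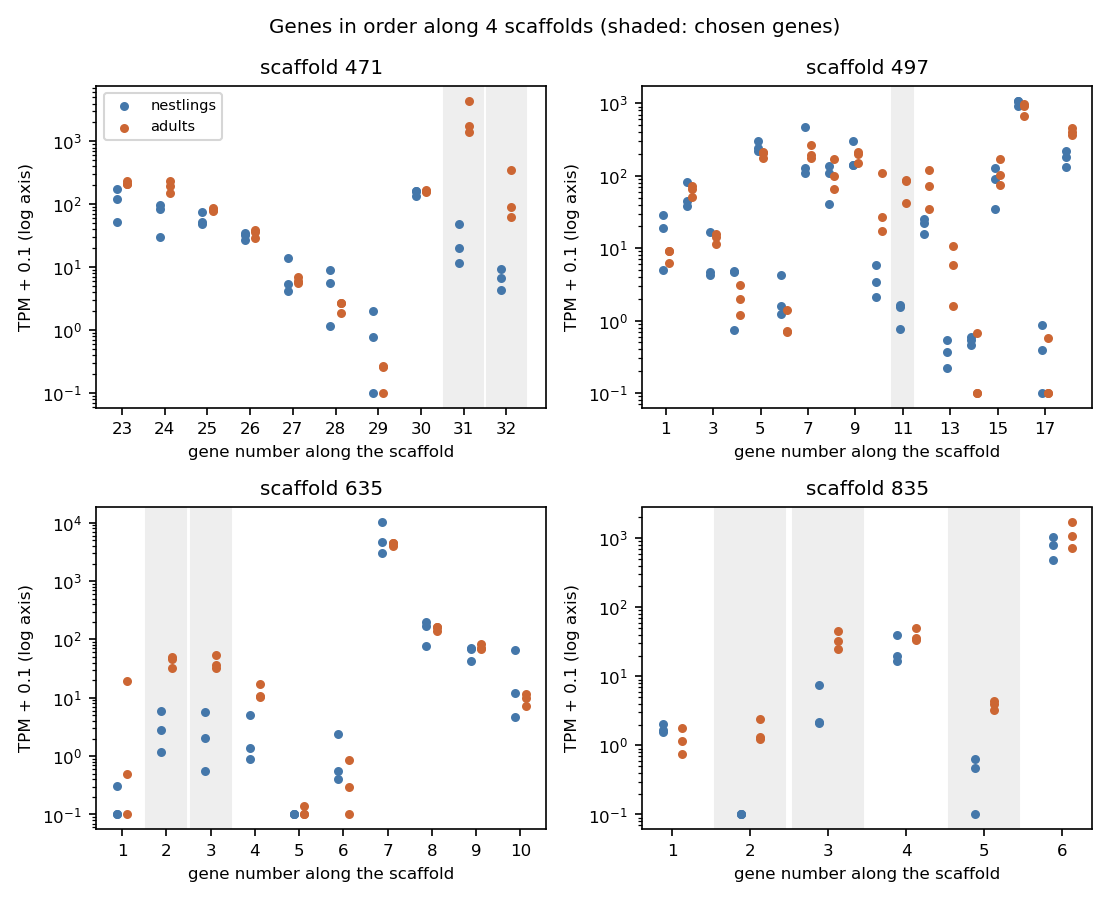
Levels of genes in their order along scaffolds 471 (genes 23 to 32), 497, 635 and 835, as TPM + 0.1 on log axes, with nestlings in blue, adults in orange and members shaded. On scaffold 471, gene 30 overlaps between the stages, while genes 23, 24, 25, 31 and 32 are higher in every adult, the last pair by far the most. On scaffold 497 this holds for genes 10, 11, 12, 13 and 18, on scaffold 635 for genes 2, 3 and 4, and on scaffold 835 for genes 2, 3 and 5.

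The reads of the members were spread over their exons in adults. Of the 154 coding exons of the 33 genes, 154, 152 and 153 carried reads in adults 4 to 6, and 109, 89 and 104 in nestlings 1 to 3. Among genes averaging 1 TPM or more, 94.5% to 99.0% of the exons carried reads, with nestling 2 the lowest of the 6 birds. These genes were not matched for level with the members, whose median in nestlings was 0.465 to 0.662 TPM. The rule asks for low nestling levels, and exons of genes with low levels are more easily without reads. In 24 of the 26 members with more than 1 exon, every exon had reads in every adult, and in 6 of the 26 every exon had reads in every nestling. The 2 exceptions in adults were NheS1871g001 and NheS0557g003. The median quotient between the exon of highest and of lowest coverage within a gene was 2.06 in adults. Exon coverage comes from the libraries that chose the genes, and it describes where the reads lie.

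NheS0408g004 was an even case. Its 9 exons had a coverage per base of 19.5 to 32.1 in adult 4, 25.9 to 67.6 in adult 5 and 13.5 to 32.1 in adult 6, against 4.48 or less on any exon in any nestling. In NheS1542g001, all 7 exons lay between 8.64 and 28.3 in adults, and nestling 3 alone had reads on all 7, from 0.771 to 5.93. NheS0030g015, shown for its 14 exons and picked after its values were seen, was at 0.899, 0.192 and 0.355 TPM in nestlings and at 14.2, 13.1 and 8.08 TPM in adults. All of its exons had reads in every adult, with a lowest coverage of 3.43, and 12, 8 and 10 of the 14 in nestlings 1 to 3.

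NheS0497g011 was uneven. Its exons 1 and 2, numbered from the lower coordinate and thus at the 3′ end of this minus-strand gene, had a mean coverage of 396, 395 and 154 in adults 4 to 6, while exons 3 to 9 had 36.4, 39.8 and 26.6. In nestlings the same stretches had 5.25, 9.50 and 2.62, and 0.856, 1.95 and 0.766. Adults were therefore above nestlings on both stretches. Within the first stretch, exon 1 was at 9.98, 20.4 and 5.89 in nestlings and exon 2 at 1.46, 0.765 and 0. Adults had 489, 461 and 190 on exon 1 and 322, 342 and 124 on exon 2. The steep drop thus came after exon 1 in nestlings and after exon 2 in adults. Introns of 4300 and 10721 bp flank exon 2, while those between exons 3 and 9 are 205 to 616 bp long. Exons 1 and 2 hold 74.7% to 84.8% of the adult reads in 767 of the 2268 coding bases. The TPM of this gene model thus rests mostly on its first pair of exons, and whether both stretches belong to 1 transcript was not tested.

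**Figure D5:**
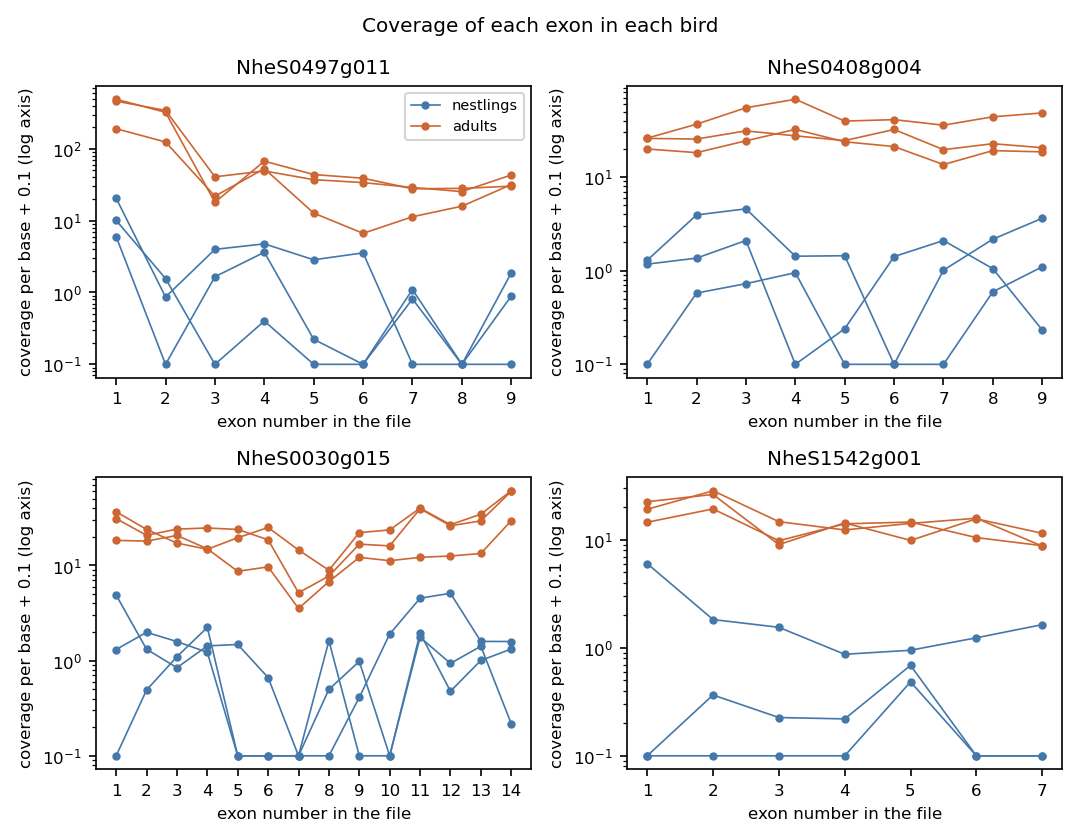
Coverage per base of each coding exon (plus 0.1, log axis) in the 3 nestlings (blue) and 3 adults (orange) for 4 chosen genes, with exons numbered from the lower coordinate. Adult lines lie above nestling lines on every exon, evenly in NheS0408g004. In NheS0497g011 the adult lines step down between exons 2 and 3, where the coverage of adult 4 goes from 322 to 17.9. Its nestling lines drop between exons 1 and 2.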

How the data were processed

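OE libraries of 6 *N. nycticorax* and 6 *E. garzetta*, 1 a bird, were read as pairs of 150 bp. The authors trimmed reads with Trimmomatic, mapped them with HISAT2 (version not given in the sources used here) and ran StringTie 2.1.4 on each bird over the annotated transcripts. They deposited TPM and FPKM values, both normalized for length and depth, and the coverage per base of each exon, a signal not normalized for depth. The merging of birds was not repeated. FPKM served only as an alternative.

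Members, lists and tests were chosen with earlier results of these data known. Named genes are the 6 members of highest adult mean, the 6 of largest ratio, the genes nearest the ratio of 3, those sharing a scaffold, the longest, the shortest and the one with most exons, and listed genes beside a member. Others are marked as picked after their values were seen. Listed genes were paired with symbols by the study's supplementary tables. The effect of stage on log2(TPM + 0.1) was estimated by limma 3.58.1 (R 4.3.3) with a trended prior variance. Genes averaging under 0.02 TPM were left out and p-values were adjusted after Benjamini and Hochberg. No p is given for a member. Standard errors come from the SDs of the 3 birds of each stage, not from limma. Rescaling divided each bird by its median ratio to the geometric mean over genes above 0 in all birds. Other steps used pandas 2.3.3, numpy 2.4.6 and matplotlib 3.10.9 under Python 3.11.15. Alternatives changed the added TPM, scale, ratio, lowest level and filter, or left out single birds. The *N. nycticorax* identifiers have no gene names or sequences in the sources used here.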

Additional observations from a re-analysis of the deposited data

How the results depend on the processing

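The number of members was 33. It was 15 with 1 TPM added, 100 at a ratio of at least 2, 15 at a ratio of at least 5 and 18 at a lowest adult of at least 5 TPM, and it lay between 41 and 181 without 1 bird. It was within 1.5 times of 33 under the other alternatives, with 36 genes with 0.01 TPM added, 22 after rescaling and 23 by FPKM. The rule with the stages exchanged gave 2 genes. It gave 4 with 0.01 TPM added, 1 with 1 TPM added, 8 at a ratio of at least 2, 1 at a ratio of at least 5, and 3 to 47 without 1 bird, the 47 without nestling 1. In *E. garzetta* the rule gave 0 genes, 2 at a ratio of at least 2, and 1 to 13 without 1 bird, the 13 without adult 4. The median log2 difference of the members was 3.68. It became 4.60 when only 0.01 TPM was added before taking logs and 2.14 when 1 TPM was, and 3.52 to 3.99 without 1 bird. The members' share of all transcripts in adults was 0.361%, and 0.106% without NheS0471g031, an alternative chosen after seeing the data. Genes next to another member were 6 of the 33, and 19 of the 100 when a ratio of at least 2 made a gene a member. This alternative was also chosen after seeing the data. The limma fit called 0 genes. It called 1 gene with no filter on low values, and 0 to 6 without 1 bird, the 6 without nestling 1. A member among the called genes gains no support from the call, as the same contrast chose the members. The cause of these changes was not tested, apart from the easier rule over fewer birds. Median coding length and median exon number stayed within 1.5 times among the members that pass after rescaling. No other alternative set of members was examined for them. The other alternatives stayed within the spread or within 1.5 times. No paired analysis was possible because the nestlings and adults of a species were different birds. The deposited values give depth only through coverage. Short members of low level rest on few reads, such as NheS0067g018, with an adult mean of 3.16 TPM and 8.44 read equivalents in adult 6.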
